A study of Mus musculus with 8 samples.

Results

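Imprinted genes that steer fetal growth were followed in mouse rib chondrocytes, the cells of growing cartilage: Igf2, H19, Dlk1, Meg3, Peg3, Mest, Grb10, Plagl1, Ndn and Cdkn1c. A gene counted as measured where the array held a probe set, a group of short probes read as 1 value, annotated to its symbol alone. That rule found 36 of the 45037 probe sets, for 9 of the 10 genes. H19 had none, because its only probe set is annotated to H19 and Mir675 together, and that probe set is described beside the members but not counted with them. The samples were 8 pools of chondrocytes from FVB embryos at E18.5, freed from rib cages with collagenase and trypsin: 4 pools of wild-type embryos, labelled control, and 4 pools of Hoxd4-transgenic embryos. Each of 4 litters gave 1 pool of each genotype. The sources used here do not name the promoter of the transgene, the number of embryos in a pool or their sex. The comparison asks whether the signals of these genes differ where the homeobox gene Hoxd4 is overexpressed.

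Genomic imprinting marks a gene in the germ line so that only the copy from 1 parent is expressed. Many of the genes expressed from the paternal copy, such as Igf2 and Dlk1, favour growth of the fetus, while several expressed from the maternal copy, such as Grb10 and Cdkn1c, restrain it. Igf2 and H19 are neighbours that share enhancers and are expressed from opposite parental copies, as are Dlk1 and Meg3. Cdkn1c is needed for growth-plate chondrocytes to leave the cell cycle and enlarge. The arrays sum both parental copies, so they show the level of a transcript and not its parent of origin.

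Start-site windows of Meg3 and Igf2 are shown because each is compared here with its imprinted neighbour, and that of Peg3 because it shares a motif with Meg3. RefSeq start-site windows of GRCm38.p6, 250 bases before to 50 bases after a start, were found for 8 of the 10 genes (15 windows), and H19 and Cdkn1c were not among them. The letters searched on both strands were TGACGTCA (the palindromic cAMP response element), TATAAA, a core promoter element, GGGCGG, the GC box, and CCAAT, bound by the trimeric NF-Y factor. The cAMP response element stood in 2 of the 15 windows, those of Meg3 at chr12:109540746-109541045 on the plus strand and of Peg3 at chr7:6730370-6730669 on the minus strand, and in 1.79% of all 32851 windows. In the Meg3 window it began 57 bases before the start, with a stretch that reads TATAAA on both strands beginning 29 bases before it. In the Peg3 window it began 178 bases before the start. Capitals mark these matches in the following lines.
Meg3: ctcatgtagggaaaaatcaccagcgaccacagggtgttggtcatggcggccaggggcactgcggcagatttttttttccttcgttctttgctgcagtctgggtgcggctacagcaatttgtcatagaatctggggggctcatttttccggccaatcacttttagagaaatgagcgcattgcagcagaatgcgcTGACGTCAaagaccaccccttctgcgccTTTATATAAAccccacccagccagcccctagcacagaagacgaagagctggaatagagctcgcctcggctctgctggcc
Peg3: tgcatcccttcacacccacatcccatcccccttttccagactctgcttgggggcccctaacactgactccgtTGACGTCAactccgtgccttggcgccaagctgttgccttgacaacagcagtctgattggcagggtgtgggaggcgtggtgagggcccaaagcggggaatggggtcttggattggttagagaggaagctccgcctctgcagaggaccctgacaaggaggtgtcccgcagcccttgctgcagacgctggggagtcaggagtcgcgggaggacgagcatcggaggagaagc

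The Igf2 window at chr7:142657447-142657746 on the minus strand, 1 of 4 for this gene, held 2 GC boxes, marked by capitals.
Igf2: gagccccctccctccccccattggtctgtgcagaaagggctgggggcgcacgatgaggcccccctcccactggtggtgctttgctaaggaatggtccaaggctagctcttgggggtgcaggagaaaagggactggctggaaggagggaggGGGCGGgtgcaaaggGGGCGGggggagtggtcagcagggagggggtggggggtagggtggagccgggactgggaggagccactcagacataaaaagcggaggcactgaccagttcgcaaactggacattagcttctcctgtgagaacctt
GC boxes were found in 8 of the 15 windows (5 genes) and in 35.7% of all windows, and CCAAT in 3 of 15 and in 37.4%. Of these 8 windows, 2 of Mest (chr6:30737800-30738099 and chr6:30737803-30738102) overlap almost fully and count the same GC box. TATAAA was found in 1 of 15, against 13.6% of all windows. The windows ranged from 1 CpG, at a second Meg3 start, to 45 CpGs, at a Grb10 start on chromosome 11, with a median of 13 where the median of all windows was 7. The H19 transcript also carries the Mir675 hairpin, whose mature forms, from RefSeq (GRCm38.p6), are given with bases 2 to 8, the seed, in capitals. They are shown because the shared probe set is named for both.
mmu-miR-675-5p: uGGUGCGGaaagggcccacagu
mmu-miR-675-3p: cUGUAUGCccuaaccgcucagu

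Chondrocyte identity and the other cells of the digest were read from marker lists. All 14 cartilage markers (among them Col2a1, Acan and Sox9) were bright enough to test, and 12 of them were among the brightest 1% of probe sets. In transgenic arrays 11 of the 14 were higher and 3 lower, with a median log2 fold change of 0.05. RNA of other cells was present too: the summed signal of the 14 skeletal muscle markers, all tested, lay between 30584 and 44376 in control arrays and between 28383 and 41162 in transgenic arrays, with 11 of 14 higher in the latter. For the 10 fibroblast and perichondrium markers it lay between 168347 and 193138 and between 165846 and 199665, with 8 of 10 higher in transgenic arrays and a median log2 fold change of 0.04. Endothelial markers (10 of 11 tested) were mostly dimmer in transgenic arrays, 7 lower and 3 higher with a median log2 fold change of -0.22, at sums of 2205 to 2951 and 1782 to 2793. The 3 tested erythroid markers of 8 had log2 fold changes below 0, with a median of -0.28. All 3 were lower in the transgenic array of every litter, as 6.6% of all tested probe sets were. Of the 7 osteoblast markers 4 were tested, 3 lower and 1 higher in transgenic arrays, with a median of -0.14. Immediate early genes, which respond to tissue dissociation, were higher for 10 of 12, with a median of 0.07. A limma unadjusted p under 0.05 was found for 1 of 14 muscle, 1 of 10 endothelial, 1 of 4 osteoblast and 2 of 12 immediate early genes. No cartilage, fibroblast or erythroid marker had one, and 3.29% of all tested probe sets did. With the litter as a block, all 3 erythroid markers had a limma unadjusted p under 0.05 (0.00138 to 0.0303), against 5.54% of all tested. None of these genes had an adjusted p under 0.05 in either fit. The part of these lists in the members' values was not tested. In such bulk samples fewer cells of a type and less RNA per cell cannot be told apart. Xist, transcribed from the inactive X chromosome, read 5778, 9945, 13760 and 8098 with its brightest probe set in the controls of litters 1 to 4, against 79.8, 3266, 47.2 and 8209 in the transgenic arrays, lower in 3 of 4 litters and about level in litter 4. Eif2s3y on the Y chromosome was higher in every litter (358 to 772 in control, 813 to 1178 in transgenic arrays). The 2 other Xist probe sets were lower in the transgenic array of all 4 litters, at 4380 against 3561 and 452 against 411 in litter 4. Sex-linked signal thus moved with the genotype label, least for Xist in litter 4. Its part in the members' values was not tested and cannot be told apart from that of the genotype here. Both Hoxd4 probe sets are annotated to Hoxd3 as well. The brighter was higher in the transgenic array of 3 of 4 litters and lower in litter 4 (exact two-sided permutation p = 0.4), and the other was higher in 2 of 4 (log2 fold change -0.12, exact two-sided permutation p = 0.657), so directions rest on the labels.

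The imprinted growth genes were bright on every array. For each of the 9 genes the brightest probe set, which stands for the gene in what follows, was among the brightest 1% (451 probe sets with a mean signal of 13986 or more), as were 17 of the 36 member probe sets. These signals were 29.8 to 82.0% of the brightest signal on the same array. Whether the scanner saturated at these signals was not tested. Probe sets differ in how strongly they bind, so brightness does not rank the genes by transcript amount. Of the 36 probe sets, 31 lay above the filter on dim signals and 5 did not (3 of Ndn and 2 of Peg3, with signals of 3.54 to 76.8). No member gene passed the test between genotypes: 0 of 9 had an adjusted p under 0.05 in limma, as had 0% of all 22518 tested probe sets, and 0 of 9 had an unadjusted p under 0.05, against 3.29% of all tested (740 probe sets). The 95% intervals of the 9 fold changes lay between 0.913 and 1.15. The limma fit did not use the pairing of litter mates, and limma values below come from it unless the litter is named as a block. Signals of control and transgenic arrays overlapped for all 9 genes, as for most probe sets, since only 2.27% of all tested had no overlap.

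**Figure D1:**
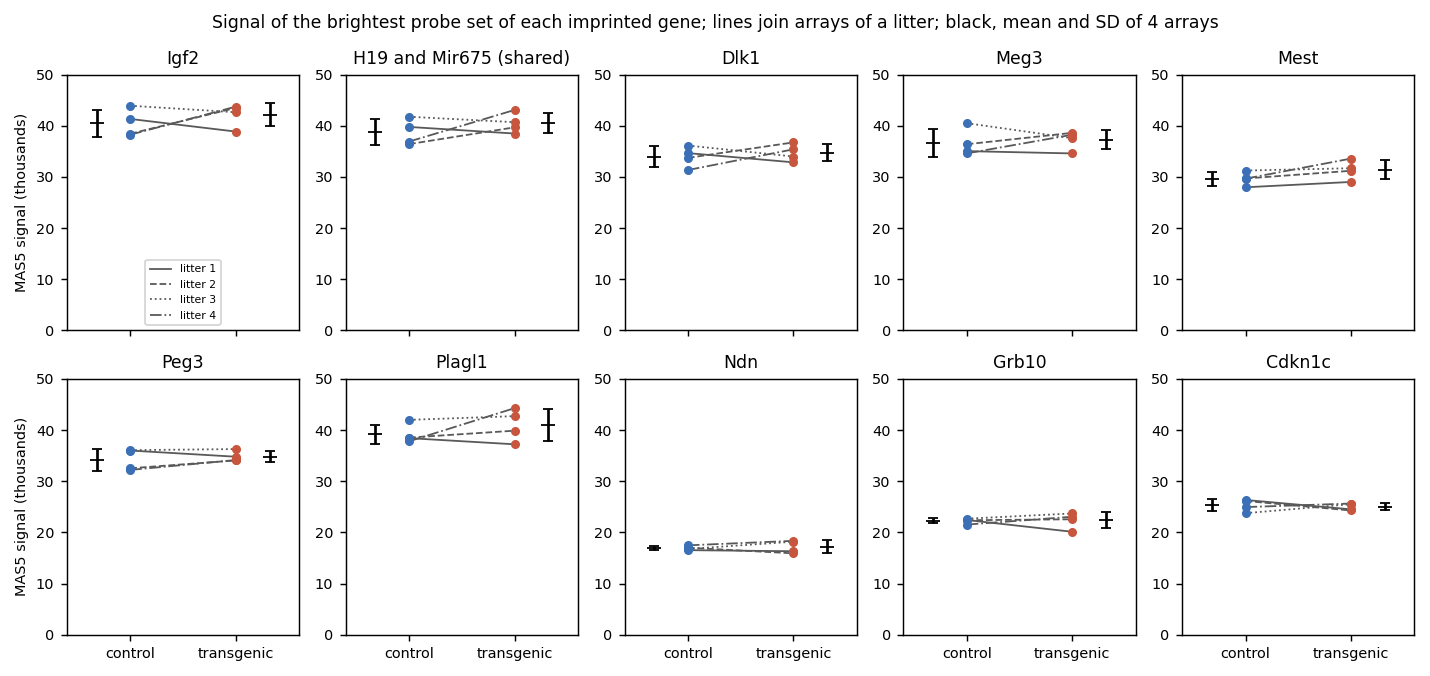
MAS5 signal (y axis, from 0, divided by 1000) of the brightest probe set of each gene in control (blue) and transgenic (red) arrays, with lines joining the 2 arrays of a litter and black bars for the mean and SD of 4 arrays. In each panel the 2 groups overlap, and Mest is the one member whose line rises in all 4 litters.

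Igf2, the insulin-like growth factor that drives fetal and placental growth, read 41318, 38428, 43901 and 38242 in controls, listed from litter 1 to litter 4, against 38853, 43486, 42627 and 43726 in their transgenic litter mates. The transgenic array was the brighter in litters 2 and 4 and the dimmer in litters 1 and 3. The means were 40472 ± 2685 (SD, n = 4) and 42173 ± 2263 (SD, n = 4), a log2 fold change of 0.06 (95% interval -0.07 to 0.19; limma adjusted p = 0.9997). The adjusted p was this same value for every tested member probe set. A dimmer Igf2 probe set ran the other way, with means of 2997 ± 431 (SD, n = 4) in control and 2703 ± 398 (SD, n = 4) in transgenic arrays. Its log2 fold change was -0.15 (95% interval -0.40 to 0.10), lower in 3 of 4 litters, and over the 8 arrays its correlation with the brighter one was -0.647. The 2 Igf2 probe sets thus gave no common direction.

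The probe set shared by H19, a noncoding RNA that represses a network of growth genes, and Mir675 read 39758, 36403, 41748 and 36904 in controls, listed from litter 1 to litter 4, against 38467, 39683, 40686 and 43077 in their transgenic litter mates. As for Igf2, the transgenic array was brighter in litters 2 and 4 and dimmer in litters 1 and 3. Its log2 difference was 0.07 (95% interval -0.06 to 0.19).

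Dlk1, a membrane protein related to Notch ligands that holds back differentiation, read 34642, 33718, 36119 and 31340 in controls, listed from litter 1 to litter 4, against 32840, 36737, 33978 and 35386 in their transgenic litter mates. The groups overlapped over most of their range. On the log2 scale the transgenic mean was higher by 0.03 (95% interval -0.09 to 0.16), and it was 0.04 for the dimmer of its 2 probe sets.

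Meg3, a noncoding RNA of the same locus expressed from the maternal copy, read 35031, 36380, 40493 and 34586 in controls, listed from litter 1 to litter 4, against 34581, 38602, 37562 and 38238 in their transgenic litter mates. The control array of litter 3 was the brightest of the 8. Overlapping groups gave a log2 difference of 0.03 (95% interval -0.11 to 0.16). Of its 11 probe sets, all tested, 6 were higher and 5 lower in transgenic arrays, from -0.29 to 0.09. The 5 bright ones followed each other across arrays, with correlations of 0.819 to 0.957 with the one that stands for the gene, and the 6 dimmer ones did so less evenly, at 0.041 to 0.879. The lowest fold change belonged to a dimmer one that was lower in the transgenic array of all 4 litters, reading 1062, 1145, 1317 and 936 in controls against 1045, 990, 1058 and 588 in their transgenic litter mates. Its value was -0.29 (95% interval -0.65 to 0.06; limma unadjusted p = 0.0945, and 0.0113 with the litter as a block), and it was the 1 member probe set of 31 lower in every litter, beside 6.6% of all tested.

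Mest, a hydrolase-like protein of embryonic mesoderm that favours growth, read 27967, 29685, 31238 and 29655 in controls, listed from litter 1 to litter 4, against 29010, 31193, 31690 and 33578 in their transgenic litter mates. The transgenic array was brighter than its litter mate in all 4 litters, yet the groups overlapped. The log2 fold change of 0.08 (95% interval -0.04 to 0.21) was the highest of the 9 genes. Mest was the 1 gene of 9 to run upward in all 4 litters, as 6.83% of all tested probe sets and 5.76% of the brightest 1% did.

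Peg3, a large zinc finger protein, read 36004, 32533, 36076 and 32215 in controls, listed from litter 1 to litter 4, against 34794, 34074, 36290 and 34144 in their transgenic litter mates. Control arrays of litters 2 and 4 were the dimmest. On the log2 scale Peg3 differed by 0.03 (95% interval -0.09 to 0.15), while its 2 other tested probe sets gave 0.05 and 0.08.

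Plagl1, a zinc finger transcription factor that regulates other imprinted genes, read 38425, 38531, 41994 and 37810 in controls, listed from litter 1 to litter 4, against 37222, 39884, 42725 and 44290 in their transgenic litter mates. Both the brightest and the dimmest array were transgenic. The log2 fold change was 0.06 (95% interval -0.07 to 0.20). This probe set, like those that stand for Meg3 and Ndn, is of a class that may cross-hybridise. The 2 other Plagl1 probe sets gave 0.14 (95% interval -0.07 to 0.35) and 0.21 (95% interval -0.12 to 0.54), so all 3 were above 0. The last was higher in 4 of 4 litters, and neither passed the test.

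Ndn, a MAGE family protein that restrains proliferation, read 16535, 17011, 16765 and 17476 in controls, listed from litter 1 to litter 4, against 16321, 15912, 18192 and 18355 in their transgenic litter mates. The spread was wider in the transgenic group, whose arrays of litters 1 and 2 lay below and of litters 3 and 4 above all control arrays. Between genotypes the log2 difference was 0.02 (95% interval -0.11 to 0.15). Its 4 further probe sets above the filter lay between -0.03 and 0.13. The highest of them had means of 10958 ± 578 (SD, n = 4) and 12019 ± 795 (SD, n = 4) and a limma unadjusted p of 0.0588, and 0.0412 with the litter as a block.

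Neither Grb10 nor Cdkn1c, named above as restraining fetal growth, passed the test. Grb10, an adaptor that damps insulin and IGF receptor signalling, read 22425, 22382, 22680 and 21532 in controls, listed from litter 1 to litter 4, against 20127, 22569, 23707 and 23066 in their transgenic litter mates. The transgenic array of litter 1 was the dimmest and that of litter 3 the brightest. For Grb10 the log2 fold change was 0.00 (95% interval -0.12 to 0.13). A dimmer Grb10 probe set read 4405, 4025, 3586 and 4316 in controls against 4410, 4677, 4467 and 4758 in their transgenic litter mates. It did not overlap between the groups, though the brightest control (4405) and the dimmest transgenic array (4410) nearly met. Its log2 fold change was 0.17 (95% interval 0.01 to 0.33; limma unadjusted p = 0.0385), while the remaining Grb10 probe set gave 0.07. It was the 1 member probe set of 31 without overlap, where 2.27% of all tested had none, and the 1 of 31 with an unadjusted p under 0.05, where 3.29% of all tested did and 1.58% did so upward. With the litter as a block, 3 of 31 had an unadjusted p under 0.05, against 5.54% of all tested, and none an adjusted p under 0.05 (lowest 0.839 in limma).

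Cdkn1c, the inhibitor of cyclin-dependent kinases p57, read 26340, 26141, 23764 and 24955 in controls, listed from litter 1 to litter 4, against 24510, 24285, 25524 and 25644 in their transgenic litter mates. All 4 transgenic arrays lay within the range of the control arrays. For Cdkn1c the log2 difference was -0.02 (95% interval -0.13 to 0.10), the lowest of the 9 genes, and Cdkn1c was the 1 member below 0.

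**Figure D2:**
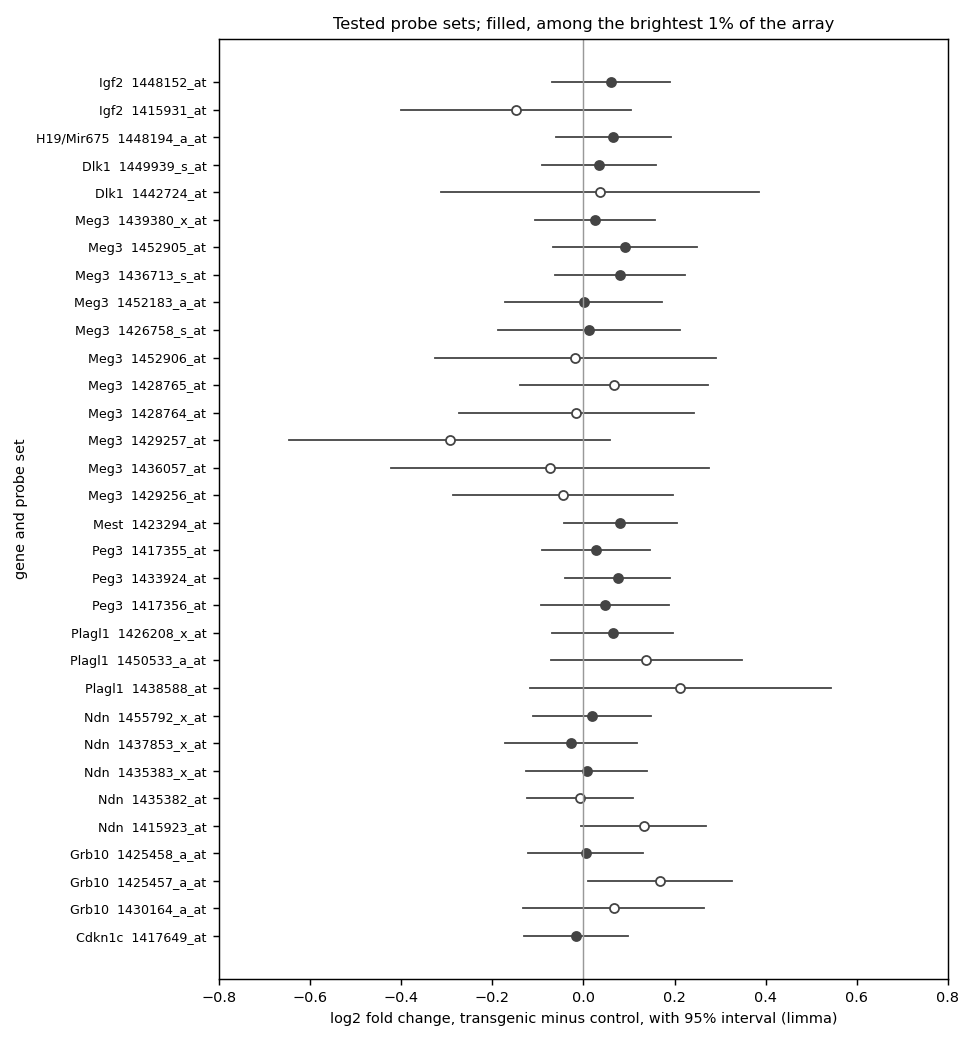
Log2 fold change, transgenic minus control (x axis), with its 95% interval from limma for each of the 31 tested member probe sets and for the one shared by H19 and Mir675 (y axis); filled points are among the brightest 1% of probe sets. Bright probe sets lie close to 0 with narrow intervals, and 1 interval, of the dimmer Grb10 probe set, lies wholly above 0.

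The 5 dim probe sets of Ndn and Peg3, left out of the limma test, had log2 fold changes of -0.27 to 0.14 and exact two-sided permutation p values of 0.457 to 0.943, the smallest possible being 0.0286.

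The small differences ran mostly upward, as did those of the brightest probe sets in general. Of the 9 genes, 8 were above 0, where 51.2% of all tested probe sets and 73.6% of the brightest 1% were. The median log2 fold change was 0.03 for the members, 0.03 for the brightest 1% and 0.00 for all tested. After quantile normalization, which gives all arrays the same distribution of signals, 5 of the 9 members were above 0, beside 51.9% of the brightest 1% and 50.7% of all tested. In litter 4 all 9 genes were brighter in the transgenic array, by 0.04 to 0.23 on the log2 scale, and in litter 1 only 1 of 9 was, with a range of -0.16 to 0.05. In litters 1 to 4 the median difference was -0.05, 0.07, 0.02 and 0.14 for the members. For the brightest 1% it was -0.03, 0.03, -0.01 and 0.10, nearer to 0 in each litter and on the other side of it in litter 3. Array by array, the median deviation of the members went from -0.08 in the control array of litter 4 to 0.065 in the control array of litter 3, the same arrays that were lowest and highest for the 96 other probe sets among the 100 brightest (-0.07 and 0.07). The other arrays matched less closely: the transgenic array of litter 1 was at -0.07 for the members and -0.02 for those probe sets, and that of litter 2 at 0.02 and -0.02. All arrays had the same trimmed mean of 500, but that mean leaves out the brightest 2% of signals, among them those of these genes. The brightest signal on an array still ranged from 49182.2 in the control array of litter 4 to 55563.5 in that of litter 1.

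**Figure D3:**
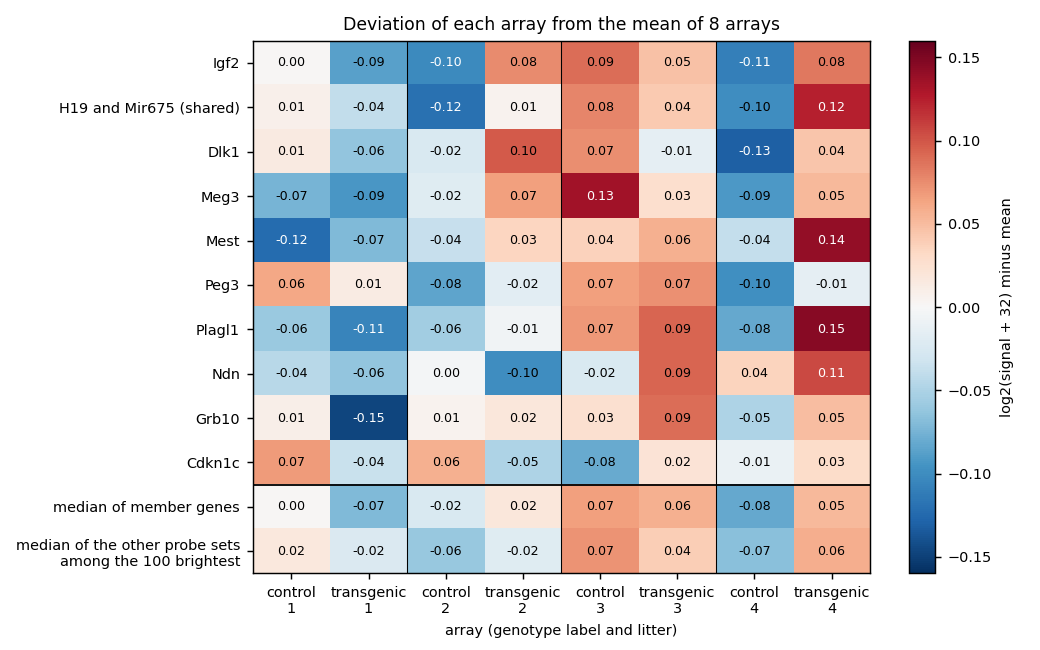
Log2(signal + 32) of each array minus the mean of the 8 arrays (colour and printed value), for the brightest probe set of each gene and, under the line, for the median of the 9 member genes and of the 96 other probe sets among the 100 brightest. Columns are arrays, ordered by litter with control before transgenic. The control array of litter 3 is the highest and that of litter 4 the lowest in both medians, with other arrays close to them.

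The residual SD of log2 signal in the limma fit lay between 0.056 and 0.092 for the 9 genes, with a median of 0.079, where the median was 0.175 over all tested probe sets and 0.077 over the brightest 1%. The members' spread was close to that of bright probe sets in general.

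Each pair of imprinted neighbours was compared across arrays. Igf2 and the probe set shared by H19 and Mir675 had a Pearson r of 0.909 over the 8 arrays (exact permutation p = 0.00131, 0.00263 adjusted over 2 pairs) and a Spearman rho of 0.881 (exact permutation p = 0.00724, adjusted 0.00724). Within genotype groups r was 0.991 for control and 0.743 for transgenic arrays. Without control replicates 4 and 2, the arrays farthest from the Igf2 median, r was 0.785 over 6 arrays and the exact permutation p 0.0597, which no longer passed, while leaving out any single array gave 0.880 to 0.962 and passed each time. Dlk1 and Meg3 gave r = 0.817 (exact permutation p = 0.0136, adjusted 0.0136) and rho = 0.881 (exact permutation p = 0.00724, adjusted 0.00724), with 0.776 in control and 0.882 in transgenic arrays. Without control replicate 4 and transgenic replicate 2, r was 0.813 (exact permutation p = 0.0486). These correlations rest on 1 probe set per gene. The dimmer probe set of Dlk1 had a correlation of 0.0 with the brighter one over the 8 arrays, and that of Igf2 -0.647, so neither followed the probe set used here.

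The level of the brightest probe sets was compared with both pairs, without a test. With the median of the 96 other probe sets among the 100 brightest, r was 0.848 for Igf2, 0.949 for the H19 and Mir675 probe set, 0.628 for Dlk1 and 0.670 for Meg3. After quantile normalization the correlation of Igf2 with the shared probe set was 0.736 (exact permutation p = 0.0383, adjusted 0.0627) and that of Dlk1 with Meg3 0.674 (exact permutation p = 0.0627, adjusted 0.0627), so neither passed. The 8 arrays are litter mates in pairs and not fully independent. As deviations from litter means, the correlations were 0.965 and 0.956, where the exact p of 0.125 is the smallest that 4 litters allow. Over all 36 pairs of the 9 member genes the median r was 0.485 with 28 above 0 and a highest value of 0.897 (Mest with Plagl1), and 0.257 with 25 above 0 after quantile normalization.

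**Figure D4:**
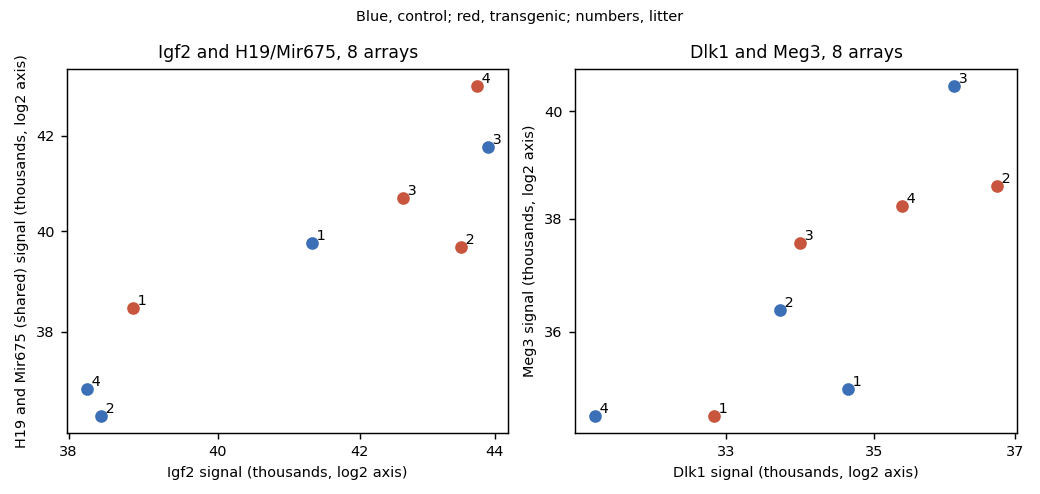
Signals divided by 1000, on log2 axes for the 8 arrays (blue, control; red, transgenic; numbers, litter): Igf2 against the probe set shared by H19 and Mir675 on the left, Dlk1 against Meg3 on the right. Both clouds slope upward, with r = 0.909 and 0.817, and both genotypes lie along the slope.

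The genes most like the members with the widest spread across arrays were ranked by Pearson r over the 8 arrays among 11012 other genes. For Igf2 these were Fmod (0.95), a small leucine-rich proteoglycan of cartilage and tendon, Rpl4 (0.94), a ribosomal protein, and Itm2a (0.92), a membrane protein. For Plagl1 they were Zgrf1 (0.98), Rpl38 (0.97), another ribosomal protein, and Abhd13 (0.97). In all, 9 genes exceeded 0.9 with Igf2 and 16 with Plagl1. Among 11012 genes compared over only 8 arrays, some values above 0.9 can arise by chance, and their expected number was not computed. The ranking therefore does not show that these genes are linked to Igf2 or Plagl1. All these points share the 8 arrays and their scaling.

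Partner genes of the members were tested as well. Over 5 lists of partner genes, 78 genes were tested, 40 higher and 38 lower in transgenic arrays with a median log2 fold change of 0.01. None had an adjusted p under 0.05 in limma, and 3 (3.85%) had an unadjusted p under 0.05, beside 3.29% of all tested probe sets.

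Other imprinted genes gave 20 higher and 21 lower of 41 tested, with a median of 0.00. Pon3, a paraoxonase of the Peg10 cluster, read 778, 580, 610 and 701 in controls, listed from litter 1 to litter 4, against 895, 838, 753 and 794 in their transgenic litter mates. It was brighter in all 4 litters, and the groups overlapped only through the control array of litter 1. Its log2 difference was 0.29 (95% interval 0.06 to 0.52; limma adjusted p = 0.9997). Airn, the noncoding RNA antisense to Igf2r, read 1806, 1571, 1794 and 1755 in controls against 1620, 1341, 1689 and 1401 in their transgenic litter mates. It was dimmer in all 4 litters, with a log2 fold change of -0.20 (95% interval -0.39 to -0.002; limma adjusted p = 0.9997).

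Of 8 tested genes for IGF receptors, their adaptors and binders of Igf2 mRNA, 4 were higher and 4 lower. The smallest p values belonged to Irs1, a docking protein of the insulin and IGF1 receptors, at 0.05 (95% interval -0.06 to 0.17), and to Igf2r, the imprinted receptor that clears Igf2, at -0.07 (95% interval -0.26 to 0.12). Of 6 tested IGF binding proteins 3 were higher and 3 lower, with Igfbp4 at -0.09 (95% interval -0.30 to 0.11) and Igfbp3 at -0.12 (95% interval -0.43 to 0.19), the latter dimmer in the transgenic array of all 4 litters.

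Genes that keep imprints gave 7 higher and 6 lower of 13 tested. Smchd1, a chromatin protein that silences the inactive X and some imprinted clusters, read 2013, 2002, 2020 and 2159 in controls against 2279, 2140, 2405 and 2571 in their transgenic litter mates. It was brighter in all 4 litters, with an overlap between the control array of litter 4 and the transgenic array of litter 2. The log2 fold change was 0.19 (95% interval 0.03 to 0.35; limma adjusted p = 0.9997). Dnmt3a, a de novo DNA methyltransferase, was at 0.13 (95% interval -0.03 to 0.30). Of the 11 cyclins, kinases and inhibitors around Cdkn1c, 6 were higher and 5 lower, with Ccnd1 at -0.09 (95% interval -0.24 to 0.07) and Ccne2 at 0.15 (95% interval -0.12 to 0.41).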

How the data were processed

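The authors deposited a linear intensity for each probe set, with 1 array per pool, computed with MAS5, per the submitters' processing notes; the release used is not given in the sources used here. Each array's mean without its top and bottom 2% was 500. Median signals lay between 100.9 and 115.4, and rank correlations between arrays between 0.932 and 0.943. The number of arrays limits the precision: the median probe set's 95% interval reached 0.27 to either side on the log2 scale.

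After leaving out 64 control probe sets, log2(signal + 32) was tested for the 22518 probe sets whose mean signal lay above the median of 106, with lmFit and eBayes with intensity trend (limma 3.58.1, R 4.3.3) and Benjamini-Hochberg adjustment over all of them. The added constant makes fold changes of dim probe sets smaller. The fit was tested on simulated data. Exact permutation tests and correlations used Python 3.11.15, and figures matplotlib 3.10.9.

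Symbols came from GEO's platform annotation: 34945 probe sets had 1, 932 several and 9160 none, and none changed by identifier in a RefSeq table (GRCm38.p6). The brightest tested probe set stood for a gene. Named genes were all members, and from each partner list the 2 with the smallest p and up to 5 with an unadjusted p under 0.05. Xist, Eif2s3y and the 3 genes most correlated with each of the 2 most variable members were named too. Besides these, Hoxd4 was named as the transgene, and Col2a1, Acan and Sox9 as examples of their list. The members and lists were chosen with earlier results of these data known.

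The design text has embryos of each litter grouped by genotype, and the labels' descriptions give 1 number to a control and a transgenic array, in the same order as the replicate numbers; this number was taken as the litter. Deviations from the group means correlated at 0.28, 0.17, 0.04 and 0.14 within litters 1 to 4 and, on average, at -0.05 between litters; 3 of 4 litters correlated best with their own number. The labels name no test. The chosen fit had no block and so did not use the pairing of litter mates. An unadjusted limma p under 0.05 was found for 3.29% of tested probe sets in it and for 5.54% with the litter as a block. Alternatives were the litter as a block, added constants of 16 and 64, no filter, quantile normalization, no trend, other probe set choices, and leaving out arrays or litters.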

Additional observations from a re-analysis of the deposited data

Results flagged for a closer look

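Among 64 groups of 4 arrays, the signals of tested member probe sets and of the one shared by H19 and Mir675, 2 held an array far from the other 3, and chance gives about 1 in 20 groups. Both were dimmer Meg3 probe sets in the transgenic group. One read 588 in the transgenic array of litter 4, where the nearest other array read 990, and it is the Meg3 probe set with the fold change of -0.29. The other read 1311 in the transgenic array of litter 3, with the nearest other array at 1065. The probe set that stands for Meg3 had no such array.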

How the results depend on the processing

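Precision is limited by 4 arrays a group. Under 21 alternatives no member gene had an adjusted p under 0.05 in limma (0 of 188 values, lowest 0.907), and none an unadjusted p under 0.05 (9 genes in each, 8 without probe sets that can bind several transcripts). The log2 fold changes kept their direction in 165 of the 188 and reversed in 23, all within -0.057 to 0.213; Mest and Plagl1 kept theirs throughout.

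Quantile normalization turned Peg3 to -0.004, Grb10 to -0.016 and Ndn to -0.013, and 5 of 9 members were then above 0. With the mean of all tested probe sets Igf2 was -0.044 and Meg3 -0.015, and without probe sets that can bind several transcripts Ndn was -0.007 and Grb10 had no value. Leaving out arrays or litters moved Cdkn1c over -0.057 to 0.013, Dlk1 over -0.014 to 0.074, Meg3 over -0.014 to 0.075, Peg3 over -0.001 to 0.054, Grb10 over -0.027 to 0.058 and Ndn over -0.015 to 0.057; Igf2 (0.016 to 0.110), Plagl1 (0.010 to 0.110) and Mest (0.048 to 0.118) stayed above 0 there. The number of members above 0 ranged from 4 to 9 there, the lowest without control replicate 4, and it was 5 without both arrays of litter 4.

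The count of all tested probe sets with an unadjusted p under 0.05 went from 740 to 1248 with the litter as a fixed replicate block and 1268 as a random block, to 1844 with no filter (more probe sets tested) and to 363 of 11013 genes with probe sets averaged, and lay between 555 and 851 when arrays were left out. The count with an adjusted p under 0.05 was 0 to 2 when arrays were left out (1 without transgenic replicate 4, 2 without both arrays of litter 4) and 0 otherwise. Partner genes with an unadjusted p under 0.05 numbered 1 to 3 when arrays were left out, 1 without transgenic replicate 4 and without both arrays of litter 4. The correlation of Igf2 with the H19 and Mir675 probe set fell to 0.736 and that of Dlk1 with Meg3 to 0.674 under quantile normalization, and neither passed; as deviations from litter means (replicate block) they were 0.965 and 0.956, with an exact p that cannot fall below 0.125. Leaving out 1 array gave 0.880 to 0.962 and 0.791 to 0.907. The cause of these shifts was not tested.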
